A study of Mus musculus with 10 samples.

Results

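The 10 genes described here encode surface proteins of the vessel lining and the receptors and ligand that guide vessel growth, namely Pecam1, Cdh5, Kdr, Flt1, Tek, Tie1, Emcn, Esam, Vwf and Angpt2. They were selected by gene symbol, and all 10 were found once among the 21959 genes of the authors' expression table. RNA had been sequenced from 10 tumors that grew after 4T1 cells were injected under the abdominal skin of female BALB/c mice aged 5 to 6 weeks. The line 4T1 comes from a mouse mammary carcinoma and stands in for triple-negative breast cancer. The exercise group (E, 5 tumors, E1 to E5) came from mice with voluntary running for 21 days, and the non-exercise group (NE, 5 tumors, NE1 to NE5) from mice kept without it. The labels name no altered gene and no drug in either group, and all tumors come from this single line. The comparison asks whether the RNA of vessel cells differed in tumors of running mice. In a piece of whole tumor, fewer endothelial cells and less RNA per endothelial cell cannot be told apart.

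Endothelial cells line the blood vessels, and tumors depend on them for oxygen and nutrients. Vascular endothelial growth factors (VEGFs) released by tumor and stromal cells bind the receptor tyrosine kinases encoded by Kdr (VEGFR2, the main signaling receptor of growing vessels) and Flt1 (VEGFR1, which binds VEGF tightly but signals weakly and also exists as a soluble decoy). A parallel pathway runs from the angiopoietins to Tek (Tie2), with Tie1 as its partner receptor. Angpt1 activates Tek and stabilizes vessels, while Angpt2, stored and released by endothelial cells themselves, mostly opposes it and loosens vessels for sprouting.

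For 5 of the 10 genes (Kdr, Flt1, Tek, Tie1 and Emcn) a promoter window was at hand from RefSeq (GRCm38.p6, the C57BL/6J reference, whereas the tumors grew in BALB/c mice). The windows of the VEGF receptors and of Tek are shown because Tek and Kdr were highest in the same tumors, while Flt1 varied least between tumors. RefSeq gives 250 bases before its own start of each gene, and each printed run stops at the base before the gene start in GENCODE M21, which leaves 247 bases for Kdr and 250 for the other two. Capitals mark the matches of 7 motifs searched on both strands.
Kdr (chr5:75978459-75978705, reverse strand): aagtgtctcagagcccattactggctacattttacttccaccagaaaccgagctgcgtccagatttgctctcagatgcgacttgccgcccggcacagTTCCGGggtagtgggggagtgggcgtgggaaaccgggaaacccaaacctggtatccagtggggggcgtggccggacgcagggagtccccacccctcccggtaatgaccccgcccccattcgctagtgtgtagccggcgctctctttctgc
Flt1 (chr5:147726012-147726261, reverse strand): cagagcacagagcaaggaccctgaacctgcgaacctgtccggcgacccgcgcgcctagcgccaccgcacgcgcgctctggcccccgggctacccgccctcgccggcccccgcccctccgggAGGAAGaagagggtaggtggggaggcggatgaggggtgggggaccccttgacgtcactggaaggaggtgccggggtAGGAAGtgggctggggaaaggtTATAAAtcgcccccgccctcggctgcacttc
Tek (chr4:94739039-94739288, forward strand): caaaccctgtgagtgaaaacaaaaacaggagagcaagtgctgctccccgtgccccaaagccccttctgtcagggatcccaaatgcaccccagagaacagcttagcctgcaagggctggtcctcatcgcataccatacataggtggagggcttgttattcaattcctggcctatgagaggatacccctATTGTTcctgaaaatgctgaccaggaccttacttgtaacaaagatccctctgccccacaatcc

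Of the motifs searched, AGGAAG is a form of the site of ETS factors, the family that includes ERG and FLI1 of endothelial cells, and CCGGAA is another form of it. The GATA motif was searched as AGATAA, and the SOX motif as AACAAT. For FOX factors the letters were GTAAACA, and for the TATA box TATAAA. Of the core of the hypoxia response element, only the form ACGTG was searched. Positions count back from the gene start, with -1 for the base before it. Flt1 held AGGAAG at -129 and -53 and TATAAA at -31, Kdr held CCGGAA on the opposite strand at -150, and Tek held AACAAT on the opposite strand at -63. In the full windows of 250 bases before the RefSeq start, taken for all 5 members as for all genes, AGGAAG was present in 3 of the 5 members (Emcn, Flt1 and Tie1) and in 29.5% of the 32851 windows of all genes. CCGGAA was present in 1 of the 5 and in 3952 of all windows, and AACAAT in 2 of the 5 (Emcn and Tek) and in 9.42%. TATAAA was present in 1 of the 5 and in 12.4% of all windows. The GATA and FOX motifs, present in 9.99% and 3.17% of all windows, were in none of the 5. The form ACGTG of the hypoxia response element core, present in 16.6% of all windows, was in none of the 5 either. The form GCGTG was not searched. Its letters occur in the printed Kdr run and, on the opposite strand (CACGC), in the printed Flt1 run. These matches describe the letters of the windows and not occupied sites.

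The total count per tumor ran from 15045613 to 20646763 in E and from 18706032 to 23092251 in NE. E5 was the shallowest library, and NE4 had the highest share of mitochondrial reads (2.83% against 1.31% to 2.10% in the other tumors) and the lowest TMM factor (0.951). Counts of the members ran from 40 reads for Tek in E3 to 2008 reads for Pecam1 in NE4. Tek (40 to 241 reads per tumor) and Emcn (67 to 142) were the most thinly covered. All 10 passed the filter on low counts that left 13517 genes. Their exons overlap no other annotated gene, so that reads of a neighbor on either strand are not mixed in. Levels are given as CPM, the count of a gene scaled to a common library total after TMM (the trimmed mean of M-values), and levels are compared between genes as FPKM, which also divides by exon length. Tumor NE4 stood apart by its skeletal muscle genes, with 12 genes summing to 30354 CPM against 6.16 to 1690 CPM in the other NE tumors and 308 to 4235 CPM in E. Tumor E5 stood apart by its fibroblast genes, with 7 genes summing to 15382 CPM against 2182 to 5021 CPM in the other E tumors and 966 to 4950 CPM in NE. Of 8 epithelial genes fixed for the tumor cells, 4 passed the filter, and Krt8, Krt18 and Cldn3 reached no more than 1.24, 2.20 and 0.0950 CPM in any tumor.

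No difference between E and NE was detected in any of the 10 genes. With edgeR's quasi-likelihood test, 0 of the 10 passed the thresholds of a 2-fold change and an FDR (adjusted p) of 0.05, against 0 of the 13517 genes tested (0%). An unadjusted p of 0.05 or less was reached by 0 of 10 members, against 4.86% of all genes. In the exact permutation test, two-sided and over every assignment of 5 and 5 tumors, 0 of 10 members had a p of 0.05 or less, against 5.51% of all genes, and its smallest p was 0.214 (Flt1). The groups overlapped in every member, while they did not overlap in 0.725% of all genes. DESeq2 and limma-voom with sample weights also called 0 members and gave 0 members at an unadjusted p of at most 0.05, where they gave 800 and 1800 of all genes. The median log2 fold change was -0.029 over the 10 genes and -0.014 over all genes tested, with 4 members above 0 and 6 below. This split depended on single tumors, with 7 above and 3 below without NE4 and 0 above and 10 below without E5. The 95% intervals of 8 members lay between 0.583-fold and 1.45-fold, and those of Tek (0.399 to 1.79-fold) and Vwf (0.673 to 2.23-fold) were wider. A 2-fold change in either direction was therefore outside the interval for 8 members, while a 2-fold lower Tek and a 2-fold higher Vwf in E were inside theirs. Summed over the 10 genes, E tumors had 230.1 ± 46.1 and NE tumors 232 ± 45.0 CPM (SD, n = 5 each).

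**Figure D1:**
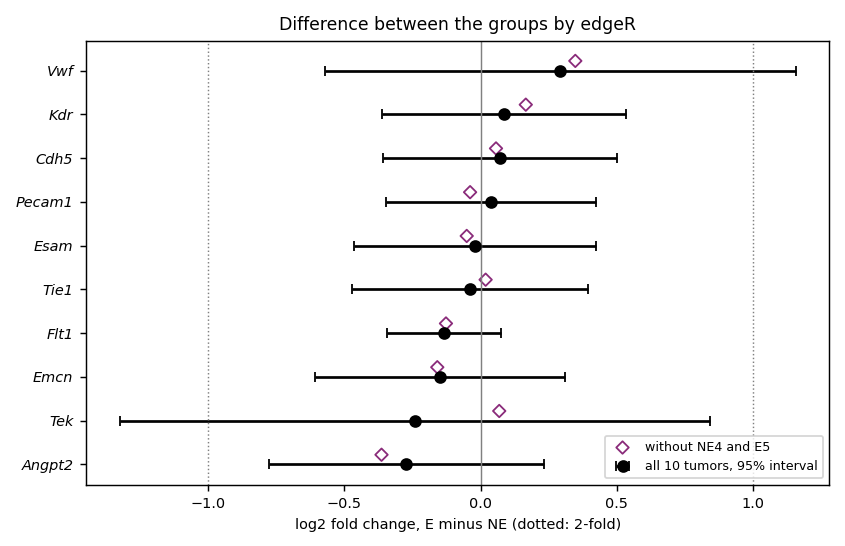
Log2 fold change of each gene between the groups (E minus NE, x axis) by edgeR, with filled points and 95% intervals for all 10 tumors and open diamonds for the fit without NE4 and E5. All 10 intervals include 0, and only those of Tek and Vwf reach a 2-fold difference (dotted lines).

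The VEGF receptors differed in how much they varied between tumors, more for Kdr than for Flt1. Kdr had 13.4, 14.1, 12.2, 11.6 and 18.1 CPM in E1 to E5, and 9.93, 12.8, 9.88, 19.6 and 13.1 CPM in NE1 to NE5. NE4 and E5 were the highest tumors of their groups. The other tumors lay between 11.6 and 14.1 CPM in E and between 9.88 and 13.1 CPM in NE. The E tumors averaged 13.9 ± 2.55 and the NE tumors 13.1 ± 3.95 CPM (SD, n = 5 each, log2 fold change 0.086, standard error 0.202, FDR 0.956 by edgeR). Flt1 had 55.1, 48.6, 44.9, 43.7 and 54.8 CPM in E1 to E5, and 54.4, 46.8, 51.1, 61.6 and 57.4 CPM in NE1 to NE5. Its highest tumor was again NE4, but the range over all tumors was only 1.41-fold, the narrowest of the 10 genes. On average the E tumors had 49.4 ± 5.39 and the NE tumors 54.3 ± 5.72 CPM (SD, n = 5 each, log2 fold change -0.13, standard error 0.0946, FDR 0.897 by edgeR), and an E tumor exceeded an NE tumor in 7 of the 25 pairings. Per exon length, Flt1 was the higher receptor in every tumor, with an FPKM 2.03 to 2.76 times that of Kdr in E and 2.10 to 3.66 times in NE. The soluble and the membrane form of Flt1 share 1 value in a table of genes and were not told apart.

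The Tie receptors differed from each other in how far single tumors departed. Tek had 3.06, 2.57, 1.97, 4.58 and 7.03 CPM in E1 to E5, and 2.72, 2.70, 2.95, 11.1 and 3.23 CPM in NE1 to NE5. In 8 tumors Tek lay between 1.97 and 4.58 CPM, and NE4 and E5 stood above them with 241 and 108 reads. The E tumors averaged 3.84 ± 2.03 and the NE tumors 4.53 ± 3.65 CPM (SD, n = 5 each, log2 fold change -0.24, standard error 0.489, FDR 0.949 by edgeR). NE4 decided the sign of this difference, since the log2 fold change was 0.40 without NE4, -0.57 without E5 and 0.069 without both. Tie1 had 8.90, 8.55, 8.31, 9.06 and 12.6 CPM in E1 to E5, and 9.72, 9.01, 7.32, 14.4 and 8.27 CPM in NE1 to NE5. The same tumors were highest, by a smaller margin, and the E tumors averaged 9.49 ± 1.78 and the NE tumors 9.73 ± 2.73 CPM (SD, n = 5 each, log2 fold change -0.037, standard error 0.196, FDR 0.984 by edgeR). The FPKM of Tek was 0.803 of that of Tie1 in NE4 and 0.581 in E5, and 0.247 to 0.528 in the other tumors.

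Angpt2, the ligand of Tek that endothelial cells make, did not share this pattern. It had 12.2, 10.02, 19.4, 15.1 and 14.5 CPM in E1 to E5, and 25.3, 15.2, 12.3, 13.4 and 19.8 CPM in NE1 to NE5. NE1 was the highest tumor and E2 the lowest, while NE4 and E5 lay inside the range of their groups. The E tumors averaged 14.2 ± 3.52 and the NE tumors 17.2 ± 5.33 CPM (SD, n = 5 each, log2 fold change -0.27, standard error 0.229, FDR 0.897 by edgeR), and without NE1 the log2 fold change was -0.079. The FPKM of Angpt2 exceeded that of Tek in every tumor, from 1.55 times in NE4 and 2.62 times in E5 to 11.9 times in NE1 and 12.6 times in E3. Against Angpt1, the stabilizing ligand, the FPKM of Angpt2 was 0.505 to 1.22 times in E and 0.574 to 1.69 times in NE, with overlapping ranges.

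The junction and adhesion genes followed NE4 and E5 more closely. Pecam1 encodes CD31, an adhesion molecule of endothelial cells that platelets and some leukocytes also carry, and had 64.9, 65.4, 61.5, 72.7 and 108 CPM in E1 to E5, and 72.1, 61.5, 58.8, 92.1 and 78.6 CPM in NE1 to NE5. E5 was the highest tumor and NE4 the next, and both were above all other tumors of their groups. The E tumors averaged 74.6 ± 19.4 and the NE tumors 72.6 ± 13.5 CPM (SD, n = 5 each, log2 fold change 0.037, standard error 0.174, FDR 0.982 by edgeR). Cdh5, the gene of VE-cadherin that holds endothelial junctions together, had 28.9, 29.6, 35.8, 37.0 and 50.3 CPM in E1 to E5, and 39.1, 26.4, 27.3, 47.0 and 33.0 CPM in NE1 to NE5. Here too E5 and NE4 led, followed by NE1. For this gene E averaged 36.3 ± 8.62 and NE 34.5 ± 8.61 CPM (SD, n = 5 each, log2 fold change 0.072, standard error 0.194, FDR 0.963 by edgeR). Esam, a junction molecule of endothelial cells and platelets, had 8.62, 8.18, 7.72, 8.10 and 13.5 CPM in E1 to E5, and 8.32, 9.65, 7.36, 12.9 and 8.46 CPM in NE1 to NE5. The other 8 tumors lay between 7.36 and 9.65 CPM, below E5 and NE4, and the log2 fold change was -0.021 (standard error 0.200, FDR 0.993 by edgeR).

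Emcn encodes endomucin, a sialomucin of capillary and venous endothelium, and had 3.35, 3.51, 5.85, 4.96 and 5.93 CPM in E1 to E5, and 5.90, 4.42, 4.67, 6.51 and 4.66 CPM in NE1 to NE5. NE4 was the highest tumor, but E5, NE1 and E3 came within 5.85 to 5.93 CPM, so that no tumor stood clear of the rest. The log2 fold change was -0.15 (standard error 0.207, FDR 0.933 by edgeR). Vwf encodes von Willebrand factor, the clotting protein that endothelial cells and megakaryocytes make and that shares its storage granules with Angpt2. It had 8.52, 13.4, 11.31, 11.99 and 26.6 CPM in E1 to E5, and 9.30, 6.80, 7.45, 23.0 and 11.9 CPM in NE1 to NE5. E5 and NE4 were far above the other 8 tumors, which lay between 6.80 and 13.4 CPM. With all tumors, E averaged 14.4 ± 7.05 and NE 11.7 ± 6.64 CPM (SD, n = 5 each, log2 fold change 0.29, standard error 0.390, FDR 0.930 by edgeR). Without NE4 the log2 fold change was 0.69 (unadjusted p = 0.0569 and FDR 0.877 by edgeR), without E5 it was -0.049, and without both 0.35.

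**Figure D2:**
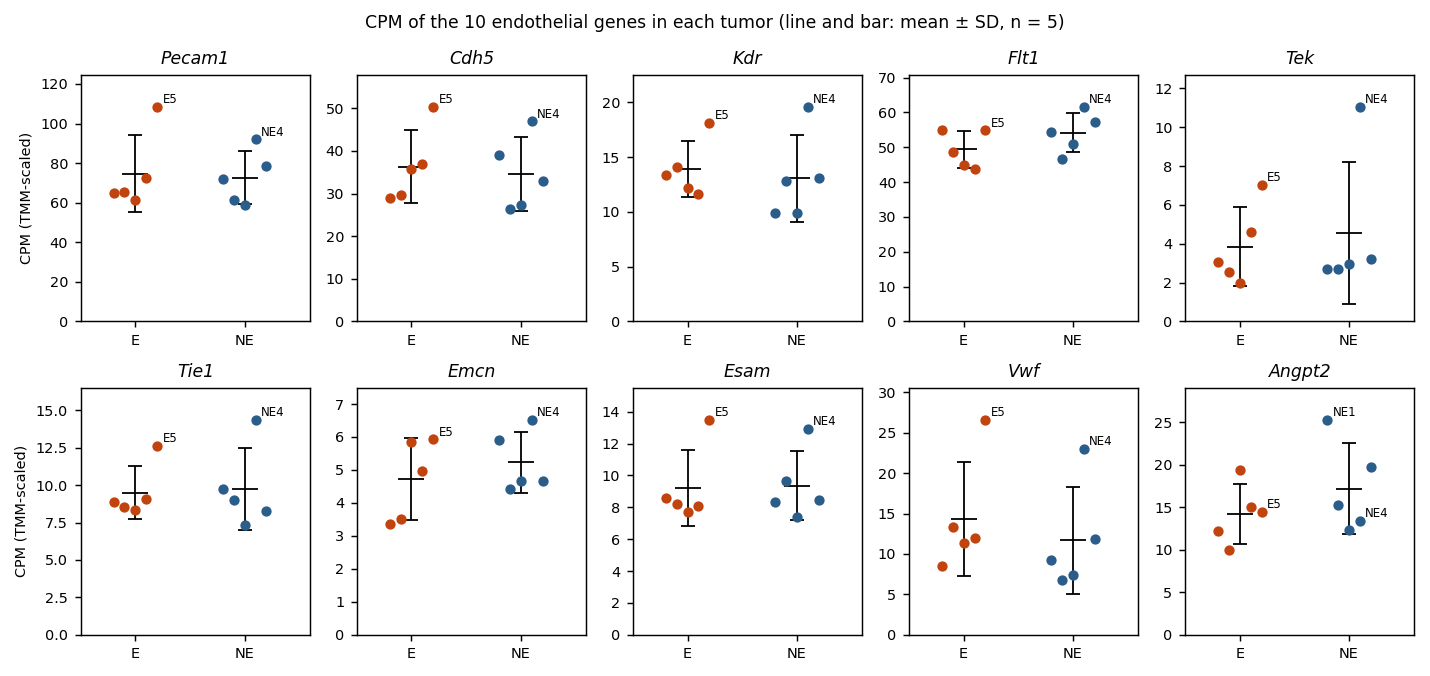
CPM (y axis, TMM-scaled, from 0) of each of the 10 genes in the 5 tumors of E and the 5 of NE, with the mean as a line and the SD as a bar. The groups overlap in every panel, and E5 and NE4 are the top points of most panels except that of Angpt2, where NE1 is highest.

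On the FPKM scale the members fell into an order that was largely the same in each tumor. Pecam1 was highest (11.8 ± 2.54 FPKM, SD over 10 tumors) and Cdh5 next (8.42 ± 1.92), with Pecam1 above Cdh5 and Cdh5 above Angpt2 in 10 of 10 tumors. Angpt2 (4.26 ± 1.25 FPKM) and Flt1 (3.83 ± 0.401 FPKM) did not differ beyond their spread, as Angpt2 was the higher in 5 of 10 tumors. Esam (3.23 ± 0.731 FPKM) was below Flt1 in 9 of 10 tumors, and Tie1 (1.95 ± 0.420 FPKM) and Kdr (1.49 ± 0.335 FPKM) followed in that order in 10 of 10. Emcn (0.918 ± 0.189 FPKM), Tek (0.882 ± 0.568 FPKM) and Vwf (0.809 ± 0.408 FPKM) were lowest and had no fixed order among themselves. The spread between tumors was widest for Tek, with a coefficient of variation of 67.1% of the CPM, followed by Vwf with 50.7% and Angpt2 with 28.9%. The other 7 genes had 11.2% (Flt1) to 23.5% (Kdr).

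The larger differences thus lay between tumors of the same group. NE4 was above the other 4 NE tumors in 9 of the 10 genes, by 1.55 times their median in the median gene and by up to 3.90 times for Tek. E5 was above the other 4 E tumors in 8 of the 10 genes, by 1.49 times their median in the median gene and by up to 2.50 times for Tek. The summed level of the 10 genes was 312 CPM in E5 and 302 CPM in NE4, against 189 to 238 CPM in the other 8 tumors. Each group held 1 such tumor. The share of all genes tested in which these tumors were above the rest of their group was not computed. NE4 was also above the other NE tumors in 12 of the 12 skeletal muscle genes and 6 of the 7 fibroblast genes. E5 was above the other E tumors in 7 of the 7 fibroblast genes and 0 of the 12 skeletal muscle genes. Of the 8 epithelial genes, each was above its group in 2. Some genes in these counts were near 0, as Cldn3 in E5 (0.0651 CPM) and the muscle gene Tnnc2 in NE4 (0.138 CPM). Without both tumors the log2 fold changes of the 10 genes lay between -0.36 (Angpt2) and 0.35 (Vwf), with a median of -0.010 and 0 of 10 genes at an unadjusted p of at most 0.05 by edgeR.

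**Figure D3:**
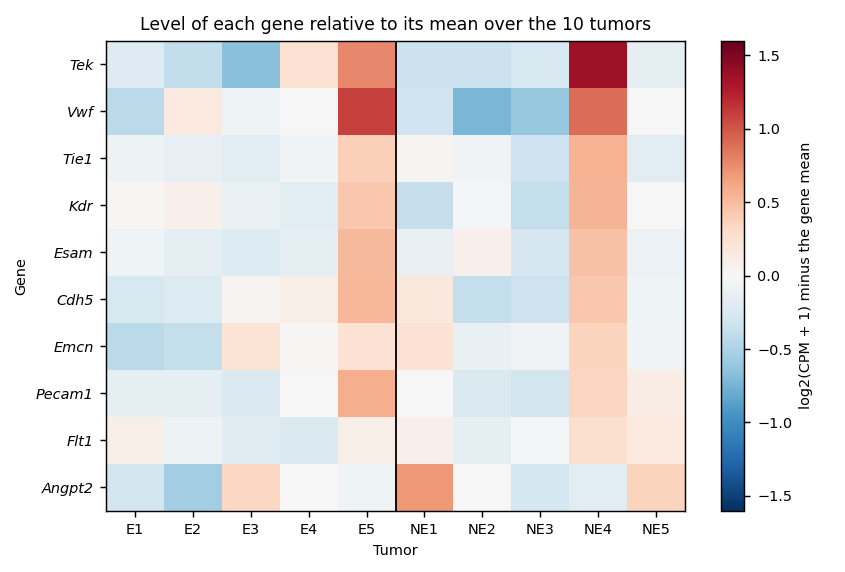
Level of each gene (rows) in each tumor (columns, E to the left of the line and NE to the right) as log2(CPM + 1) minus the mean of the gene over the 10 tumors. The columns of E5 and NE4 are red for nearly all genes, most of all Tek and Vwf, while the row of Angpt2 is darkest in NE1.

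Markers of other cell types moved with these tumors, and their part in the levels of the 10 genes was not tested. The pericyte list, 9 genes of the mural cells that cover capillaries, summed to 240.4 CPM in NE4 and 179.8 CPM in E5 and to 53.7 to 103 CPM in the other tumors. Rgs5 and Abcc9 made up 93.3 and 71.1 CPM of the sum in NE4, and Pdgfrb and Rgs5 73.7 and 64.5 CPM of that in E5. Which cells expressed these genes was not tested. NE4 also had the highest sum of the 8 capillary genes of muscle and fat vessels (287 CPM, followed by 148 CPM in E5 and 94.6 to 120.2 CPM in the other tumors). Of this sum in NE4, Aqp1, Cd36 and Fabp4 made up 118, 82.0 and 56.2 CPM, and which cells expressed them was not tested. The sum of the 8 adipocyte genes was highest in NE4 as well (108 CPM against 0.212 to 25.4 CPM). In NE4 the 12 skeletal muscle genes took 2.88% of the reads, with none at 0. They took 0.000628% in NE1, where 4 of the 12 were at 0, and up to 0.433% in E2. In E5 the muscle genes took 0.05002% and 5 of the 8 adipocyte genes were at 0. E5 had the highest sum of the 8 platelet genes (75.8 CPM against 20.1 to 40.8 CPM elsewhere), of which Pf4 made up 65.5 CPM, while Gp1bb was at 0 in every tumor and Gp9 and Gp6 reached at most 0.0849 and 0.0651 CPM. E5 was above the other E tumors in 8 of the 10 macrophage genes, among them Mrc1 (407 CPM against at most 187) and Csf1r (309.6 against at most 242), and NE4 above the other NE tumors in 7 of the 10. The macrophage sum, of which Lyz2 made up 1725 CPM in E5, was 4086 CPM in E5, 4511 CPM in NE4 and 4334 CPM in E1. All 7 fibroblast genes were higher in E5 than in the other E tumors, and 6 of the 7 were higher in NE4 than in the other NE tumors.

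**Figure D4:**
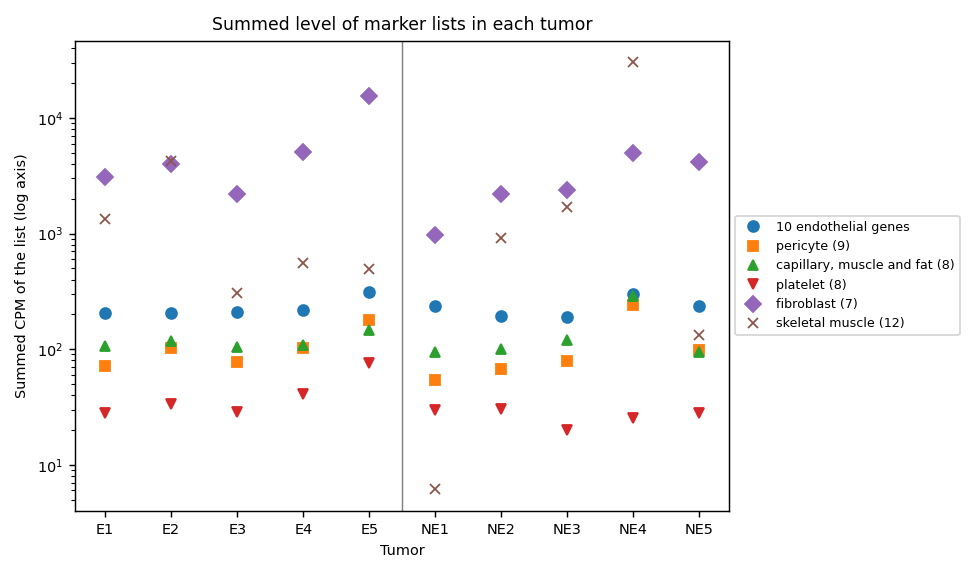
Summed CPM (log axis) of the 10 endothelial genes and of 5 marker lists in each tumor, with the number of genes of each list in the legend. The endothelial and pericyte sums are highest in E5 and NE4, the muscle sum is highest in NE4 and the fibroblast and platelet sums are highest in E5.

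Across the 10 tumors, 40 of the 45 pairs of members had a positive Pearson's r of log2(CPM + 1), with a median of 0.582. By r, 21 pairs had a Benjamini-Hochberg adjusted permutation p of at most 0.05 over the 45, and by Spearman's rho none had. The closest pair was Tie1 and Esam (r = 0.932, permutation p = 0.00189, adjusted 0.0211, rho = 0.685, permutation p = 0.0346, adjusted 0.182). Pecam1 and Vwf followed (r = 0.895, permutation p = 0.00124, adjusted 0.0211, rho = 0.806, permutation p = 0.00682, adjusted 0.108). These relations rested largely on E5 and NE4. Without them r was 0.598 for Tie1 with Esam and 0.544 for Pecam1 with Vwf, and the median over the 45 pairs was 0.103, with 30 pairs positive (8 tumors). Kdr and Emcn then ran in opposite directions (r = -0.659 over 8 tumors, 0.227 over 10), while Angpt2 and Emcn had the highest r (0.834 over 8 tumors, 0.556 over 10). The 9 pairs with Angpt2 had a median r of -0.0276 over the 10 tumors, and the 36 pairs without it 0.757. With 5 tumors a group, no r was computed within E or NE.

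Each member was also set against 8 cell type scores (the mean log2(CPM + 1) of a list) and the log2 total count, 90 relations in all. By r, 8 of them had an adjusted permutation p of at most 0.05, and by rho none had. Relations with the total count had an r between -0.411 and 0.310. The pericyte score rose with Kdr (r = 0.907, permutation p = 0.000440, adjusted 0.0198, rho = 0.806, permutation p = 0.00714, adjusted 0.129), and r was 0.659 without E5 and NE4, the tumors farthest from the median score. For Tek the r with the pericyte score was 0.889 (permutation p = 0.00257, adjusted 0.0423, rho = 0.673, permutation p = 0.0392, adjusted 0.249) and fell to 0.339 without them, so that this relation rests on those tumors. For Vwf it was 0.862 (permutation p = 0.00282, adjusted 0.0423, rho = 0.855, permutation p = 0.00309, adjusted 0.111), and 0.581 without them. With the score of 24 further endothelial genes, Kdr had an r of 0.905 (permutation p = 0.000200, adjusted 0.0180, rho = 0.842, permutation p = 0.00370, adjusted 0.111) that stayed at 0.798 without E5 and NE4. Tek, Tie1 and Esam had an r of 0.930, 0.948 and 0.942 with it (permutation p = 0.00273, 0.00158 and 0.00442, adjusted 0.0423, 0.0423 and 0.0497), their rho was 0.648, 0.673 and 0.721 (permutation p = 0.0497, 0.0387 and 0.0228, adjusted 0.259, 0.249 and 0.205), and r fell to 0.307, 0.468 and 0.481 without those tumors. Angpt2 ran against the skeletal muscle score (r = -0.819, permutation p = 0.00393, adjusted 0.0497, rho = -0.867, permutation p = 0.00190, adjusted 0.111). The tumors with the least muscle RNA, NE1, NE5 and E3, had the most Angpt2, and E2, the highest of E in muscle, had the least. Leaving out NE1 and NE4, the tumors farthest from the median muscle score, left r at -0.957, and leaving out E5 and NE4 left it at -0.970 (8 tumors each). Of all genes tested, 133 of 13517 (0.984%) had an r with the muscle score as low as Angpt2 or lower, and 46 (0.34%) a rho as low. Tek had an r of 0.517 with the same score (permutation p = 0.140, adjusted 0.358, rho = 0.152, permutation p = 0.680, adjusted 0.907), and -0.190 without NE1 and NE4. Muscle was not the only score with a negative r for Angpt2. Its r was -0.736 with the macrophage score (permutation p = 0.0143, adjusted 0.0826, rho = -0.515) and -0.505 with the fibroblast score (permutation p = 0.134, adjusted 0.358, rho = -0.370).

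**Figure D5:**
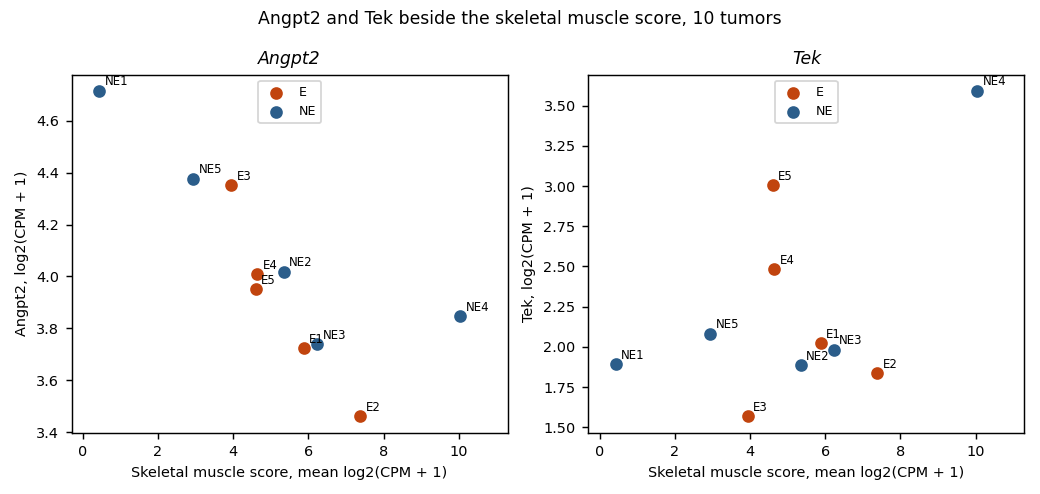
Angpt2 (left) and Tek (right), as log2(CPM + 1), beside the skeletal muscle score (mean log2(CPM + 1) of 12 genes) in each tumor of E and NE. Angpt2 is lower in tumors with a higher muscle score apart from NE4, and Tek shows no such order, with NE4 and E5 at the top.

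VEGF, angiopoietin and angiopoietin-like ligands, the co-receptors Nrp1 and Nrp2 and the receptor Flt4 were measured in the same tumors. Not all of them act on the members. By FPKM over the 10 tumors, the most abundant VEGF ligand was Vegfa (20.2 ± 3.74 FPKM, SD), the main ligand of Kdr, followed by Vegfc (15.5 ± 2.64) and Vegfb (14.04 ± 1.18). Vegfd had 8.99 ± 2.17 FPKM and Pgf, which binds Flt1, 2.07 ± 1.005 FPKM. Of 8 VEGF, angiopoietin and angiopoietin-like ligands, none had an unadjusted p of at most 0.05 by edgeR, with log2 fold changes between -0.19 (Vegfa, standard error 0.163) and 0.31 (Angpt1, standard error 0.333). Vegfb had the smallest p, 0.0972 unadjusted (log2 fold change -0.15). Vegfc, Pgf, Angpt4 and Angptl4 had log2 fold changes of 0.11, -0.053, 0.13 and 0.027, and Vegfd 0.25. Among the co-receptors, Nrp2 was high (42.0 ± 5.26 FPKM) and Nrp1 lower (5.09 ± 0.562 FPKM), and both are also expressed by cells other than endothelium. Flt4, the VEGF receptor of lymphatic vessels, had 0.365 ± 0.105 FPKM. The log2 fold changes of Nrp1, Nrp2 and Flt4 were 0.00076, 0.054 and -0.17, within their standard errors of 0.103, 0.103 and 0.280.

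Further lists of vessel genes were compared in the same fit. Of 24 further endothelial genes, all 24 of them expressed above the filter, among them Eng, the abundant co-receptor of TGF-beta on endothelium (log2 fold change 0.087, standard error 0.0585), none had an unadjusted p of at most 0.05 by edgeR, and their median log2 fold change was -0.021 beside -0.014 for all genes. Of 9 tip cell and sprouting genes, 1 had such a p, Unc5b, a netrin receptor that was higher in E (log2 fold change 0.37, standard error 0.165, unadjusted p = 0.0479). Of 8 Notch pathway genes, 7 of them tested, 1 had such a p, the Notch ligand Jag1 (log2 fold change 0.29, standard error 0.103, unadjusted p = 0.0165). Of 6 adhesion and activation genes, 1 had such a p, Sele, the gene of E-selectin of inflamed endothelium (log2 fold change 0.62, standard error 0.238, unadjusted p = 0.0248). Of 5 lymphatic genes, 4 of them tested, 1 had such a p, Pdpn, which fibroblasts also express (log2 fold change 0.49, standard error 0.187, unadjusted p = 0.0247). These 4 genes had an FDR of 0.897 by edgeR, and 4.86% of all genes had an unadjusted p of this size, so that none was called. Of the 21 alternatives given below, such a p held in 11 for Unc5b, 19 for Jag1, 16 for Sele and 16 for Pdpn. Without NE4, Unc5b had a log2 fold change of 0.25 (unadjusted p = 0.0795 by edgeR). The 9 pericyte genes and the 8 capillary genes of muscle and fat, 7 of them tested, gave no unadjusted p of at most 0.05. Their median log2 fold changes were 0.029 and -0.26. The most abundant gene of each list was Rgs5 (log2 fold change -0.091, standard error 0.438) and Aqp1 (log2 fold change -0.26, standard error 0.298).

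In the lists of other cells, 2 of 8 platelet genes had an unadjusted p of at most 0.05, Pf4 (log2 fold change 0.72, standard error 0.294) and Itga2b (log2 fold change 0.52, standard error 0.189), and 2 of 8 epithelial genes, Epcam (log2 fold change -1.01, standard error 0.387) and Krt19 (log2 fold change -0.65, standard error 0.199), all with an FDR of 0.897 by edgeR. Pf4 had 65.5 CPM in E5 and 22.2 to 31.8 CPM in the other E tumors, and without E5 its log2 fold change was 0.34 (unadjusted p = 0.0659 by edgeR). Epcam was thinly covered, at 0.525 to 1.18 CPM in E and 0.863 to 3.14 CPM in NE. Only 4 genes each of the platelet and epithelial lists were tested, and 4.86% of all genes had an unadjusted p of at most 0.05. The muscle, adipocyte, macrophage and fibroblast lists gave no gene with such a p. Their median log2 fold changes were -2.37, -1.38, 0.12 and 0.68. The muscle and adipocyte sums were highest in NE4 (30354 and 108 CPM) and the fibroblast sum in E5 (15382 CPM). The medians of these lists were not computed without those tumors. The most abundant gene of each was Acta1 (log2 fold change -1.83, standard error 1.51), Cfd (log2 fold change -1.37, standard error 1.17), Lyz2 (log2 fold change 0.12, standard error 0.305) and Col3a1 (log2 fold change 0.88, standard error 0.467). Acta1 and Cfd had standard errors above 1 on the log2 scale, beside the wide ranges of the muscle and adipocyte sums between tumors given above.

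The genes whose pattern over the 10 tumors was most like the mean of the members, by Pearson's r of log2(CPM + 1) among the genes tested, were Gna11 (r = 0.942), Fam43a (0.926), Epas1 (0.923), Daam2 (0.899), Robo4 (0.899), Akap12 (0.892), Tmem47 (0.885), Arfgef2 (0.885), Angptl4 (0.884) and Kcnj8 (0.883). Robo4 was on the endothelial list, Kcnj8 on the pericyte list and Angptl4 on the ligand list, and Epas1 encodes the hypoxia-inducible factor HIF-2α. Without E5 and NE4, r over the other 8 tumors was 0.767 for Gna11, 0.646 for Kcnj8, 0.556 for Robo4 and 0.438 for Epas1, and as low as 0.247 for Angptl4. The values come from the same libraries and were picked as the highest among the genes tested, so that they describe these tumors only.

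In the mouse genome (GRCm38, GENCODE M21), the 10 genes lie on 7 chromosomes. Kdr (chromosome 5, 75932827 to 75978458, reverse strand) and Flt1 (chromosome 5, 147561604 to 147726011, reverse strand) share a chromosome, as do Tek (chromosome 4, 94739289 to 94874976, forward strand) and Tie1 (chromosome 4, 118471191 to 118490061, reverse strand), and Cdh5 (chromosome 8, 104101625 to 104144511, forward strand) and Angpt2 (chromosome 8, 18690263 to 18741562, reverse strand), in each case far apart. Pecam1 lies on chromosome 11, 106654217 to 106750628, reverse strand, Emcn on chromosome 3, 137341067 to 137432185, forward strand, Esam on chromosome 9, 37528078 to 37538319, forward strand and Vwf on chromosome 6, 125546774 to 125686679, forward strand. The exon lengths behind the FPKM range from 2867 bases (Esam) to 16064 bases (Vwf, 56 merged exons), and for each of the 10 genes the length in the authors' table equals the union of the annotated exons. Since the union counts exons that a tissue may not use, the FPKM of genes with several transcripts, such as Vwf with 11, can be understated.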

How the data were processed

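The authors aligned paired-end mRNA reads of 10 tumors with Hisat2 and computed FPKM with Stringtie, and deposited 1 table that holds, for each gene and tumor, the read count as a whole number and the FPKM. How the counts were obtained and the build of the table are not given in the sources used here, the methods name a rat assembly while the table holds mouse identifiers, and its coordinates are not those of GRCm38 (501 of 21851 matched genes have the same start and end), so that none of them is printed. In the deposited table FPKM is the count over gene length and library total, with no TMM factor, and every column matched a sample (0 did not).

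From the counts, E and NE (groups and replicate numbers from the sample titles) were compared with edgeR 4.0.16 in R 4.3.3 (glmQLFit and glmQLFTest after TMM and filterByExpr, adjusted by Benjamini-Hochberg over 13517 genes, a log2 fold change above 0 meaning higher in E). Members were also tested by two-sided exact permutation and relations with 100000 permutations (scipy 1.17.1, Python 3.11.15). The alternatives were DESeq2 1.42.0, limma-voom and limma-trend on log2(FPKM + 1) and log2(FPKM + 0.1) (limma 3.58.1), no TMM, no filter, at least 10 counts in every tumor, a replicate block, the muscle score or log2 total count as a covariate and each tumor left out, and, after seeing the data, NE4 and E5 left out together. The edgeR script was tested on simulated data.

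The members and lists were chosen with earlier results of these data known. The genes named are the members, all listed ligands and co-receptors, up to 4 genes per other list with an unadjusted p of at most 0.05 or else its most abundant gene, and the 10 genes most like the members' mean. Other genes (among them Krt8, Krt18, Cldn3, Gp1bb, Gp9 and Gp6) were named after their values were seen. Reads copied by PCR were not separated, and tumor volumes and weights were not analysed here.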

Additional observations from a re-analysis of the deposited data

Results flagged for a closer look

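The highest and the lowest tumor of each group of 5 were compared with the rest by Dixon's test at 95%, which divides the gap to the nearest tumor by the whole range, on the log2(CPM + 1) scale. Of 52 groups of values, 8 were past the limit, where chance gives about 2.6, and several of them come from genes that move together in the same tumors.

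NE4 was above the other NE tumors past this limit in Tek, at 3.59 (the nearest other tumor of the group had 2.08), in the score of the 24 further endothelial genes, at 3.37 (the nearest other tumor of the group had 2.87), and in the score of the capillary genes of muscle and fat, at 3.99 (the nearest other tumor of the group had 3.07). E5 was above the other E tumors past this limit in Tie1, at 3.77 (the nearest other tumor of the group had 3.33), in Esam, at 3.86 (the nearest other tumor of the group had 3.27), in the score of the further endothelial genes, at 3.27 (the nearest other tumor of the group had 2.89), and in the score of the 10 members, at 4.47 (the nearest other tumor of the group had 3.99). NE1 was below the other NE tumors in the macrophage score, at 6.24 (the nearest other tumor of the group had 7.71), and it had the highest Angpt2 of all tumors. The endothelial score weights each gene alike, and E5 was above the other E tumors in 13 of its 24 genes and NE4 above the other NE tumors in 20 of them. The summed level of these genes was 529.8 CPM in E5 against 486 CPM in E1, and Eng, the most abundant of them, was lower in NE4 (141 CPM) than in any other NE tumor (at least 145 CPM). No explanation was tested for these tumors.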

How the results depend on the processing

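No alternative called a gene among the members or gave a member with an unadjusted p of at most 0.05, and the smallest such p was 0.0569 (Vwf without NE replicate 4). Over all genes, none passed both thresholds under any alternative (DESeq2's smallest FDR was 0.000208, for a gene under the 2-fold threshold), while the number at an unadjusted p of at most 0.05 ran from 122 (log2 total count as a covariate) to 1800 (limma-voom) against 657. The median log2 fold change of the members ran from -0.19 (log2 total count as a covariate) to 0.14 (without NE replicate 4).

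Of 210 values of members under 21 alternatives, 32 had the other sign, all of genes whose log2 fold change over the 10 tumors was smaller than its standard error, and those of Flt1, Emcn and Angpt2 kept theirs. Esam and Tie1 were 0.018 and 0.00070 without TMM, 0.0073 and 0.0083 on log2(FPKM + 1), 0.0074 and 0.016 on log2(FPKM + 0.1), and 0.0062 and 0.10 by limma-voom, where Tek was 0.10. With the log2 total count as a covariate, Pecam1, Cdh5, Kdr and Vwf were -0.22, -0.058, -0.091 and -0.17, Tek was -0.67, and Pf4 was -0.015. Leaving out single tumors gave ranges of -0.14 to 0.14 (Pecam1), -0.073 to 0.21 (Cdh5), -0.028 to 0.28 (Kdr), -0.57 to 0.40 (Tek), -0.16 to 0.15 (Tie1), -0.20 to 0.13 (Esam) and -0.049 to 0.69 (Vwf). Without NE4 and E5, Pecam1, Tek and Tie1 were -0.038, 0.069 and 0.019. Members above and below 0 numbered 4 and 6 over the 10 tumors, 0 and 10 with the log2 total count as a covariate and without E5, and 7 and 3 by limma-voom and without NE4, while DESeq2 gave 4 and 6, and library size without TMM and limma-trend 6 and 4. The cause of these changes was not tested beyond the tumors left out.

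The study's text speaks of matched pairs, but neither it nor the labels say what was matched or that the replicate numbers carry the pairing, so that the numbers were not used as a block in the results above. The correlation of deviations from the group means between same-numbered tumors ran from -0.325 to 0.316 and was above 0.1 for 1 of the 5 numbers. With the replicate block, 0 members were called and the median log2 fold change was -0.020, with 714 genes at an unadjusted p of at most 0.05. Depth limits Tek most, with 40 to 241 reads per tumor.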
